A study of Mus musculus with 24 samples.

Results

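Axl, Tyro3, Mertk, Met, Igf1r, Insr, Erbb2 and Erbb3 encode growth factor receptors of the receptor tyrosine kinase class, and their messenger RNA was followed across 8 lines of B16-F10 mouse melanoma cells. They are the 8 genes, of 10 listed by symbol, that have a row in a table of 12010 genes; the ligand gene Gas6 and the receptor gene Fgfr1 were not analysed here. The lines were the parental cells (genotype WT) and the knockouts (KOs) of the related transcription factors MITF, TFE3 and TFEB: the MITF KO (Mitf-KO), the TFE3 KO (Tfe3-KO), the TFEB KO (Tfeb-KO), the MITF/TFE3 DKO (Mitf and Tfe3 KO), the MITF/TFEB DKO (Mitf and Tfeb KO), the TFEB/TFE3 DKO (Tfeb and Tfe3 KO) and the TKO (Mitf, Tfeb and Tfe3 KO). Every line, the parental cells included, carried the luciferase reporter luc2 and was grown in DMEM with serum, and each line gave 3 libraries. KO cells came from isolated clones, so a difference between lines can also be a difference between clones. The number of clones per genotype is not given in the sources used here. Per the paper, TFE3 and TFEB were edited both in the parental cells and in an MITF KO line described earlier. The lines without MITF thus share the same MITF edit, so their comparisons are not independent tests of MITF loss. Nothing says that the 3 libraries of a line came from separate cultures, so the p-values measure only the spread between these libraries, which may be technical.

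Receptor tyrosine kinases span the plasma membrane; a ligand outside the cell brings receptor molecules together, the kinase domains phosphorylate each other inside the cell, and adaptors then recruit PI3K-AKT and RAS-ERK signalling. AXL, TYRO3 and MERTK form the TAM family, whose ligands GAS6 and protein S also bind phosphatidylserine on dying cells. MET binds hepatocyte growth factor, IGF1R and INSR bind insulin-like growth factors and insulin, and ERBB3, which has little kinase activity of its own, signals in pairs with partners such as ERBB2. In human melanoma, MET is a known MITF target gene, and high AXL together with low MITF is a much used description of invasive, drug-tolerant cells.

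MITF, TFE3 and TFEB bind the E-box letters CACGTG and the related letters CATGTG, and the sequence around each match near a receptor gene's start is shown because these factors are the ones knocked out. Both strands of the GRCm39 genome (the same build as mm39) were searched from 1000 bases before to 500 bases after the annotated start of the gene's main transcript in GENCODE. At least 1 match was found for 5 of the 8 genes and none for Tyro3, Mertk and Erbb2. Matches in capitals are given 5′ to 3′ on the strand of the gene.
Axl, CATGTG 516 bases before the start, chr7:25488780-25488905, minus strand, upstream of the gene: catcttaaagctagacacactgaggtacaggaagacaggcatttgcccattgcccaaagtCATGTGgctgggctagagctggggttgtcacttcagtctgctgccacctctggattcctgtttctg
Met, CACGTG 81 bases after the start, chr6:17463818-17463847, plus strand, in the 5′ UTR: gggacgaacagaCACGTGctggggcgggta
Igf1r, CACGTG 90 bases after the start, chr7:67601596-67601625, plus strand, in the 5′ UTR: tgtgcgcgcgggCACGTGtgcgcggccccg
Insr, CACGTG 856 bases before the start, chr8:3330438-3330563, minus strand, upstream of the gene: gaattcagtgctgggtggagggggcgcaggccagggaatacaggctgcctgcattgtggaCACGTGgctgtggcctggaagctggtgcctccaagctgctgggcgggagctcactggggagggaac
Erbb3, CATGTG 855 bases before the start, chr10:128426326-128426451, minus strand, upstream of the gene: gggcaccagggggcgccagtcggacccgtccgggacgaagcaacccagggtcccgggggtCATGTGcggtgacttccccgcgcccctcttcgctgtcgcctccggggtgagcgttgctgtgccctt
Igf1r also held CACGTG 897 bases before its start. Such letters are common: of 11659 genes of the table with a position, 27.1% held CACGTG and 44.8% held CATGTG in the same window. In the narrower window from 250 bases before to 50 after the start, none of the 8 genes held either, against 10.2% and 8.84% of all genes. A match is a description of these windows and says nothing of binding.

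The libraries were made from the 3′ end of polyadenylated RNA and held 18300902 to 26667877 reads on genes. Values are CPM (reads scaled to a common library total), as the authors scaled them, and the receptor genes had between 59 reads (Insr) and 12746 reads (Met) in a library. Of the knocked-out genes, Tfe3 was at 8.01 to 21.7 CPM in the TFE3-less lines and at 31.1 to 62.5 CPM elsewhere, and Tfeb at 2.06 to 5.27 CPM against 7.87 to 22.7 CPM. Mitf was at 763 to 797 CPM in the parental cells and at 326 to 1470 CPM in the MITF-less lines. Reads from the 3′ end do not check an edit elsewhere in the gene. From a faint band on its blot, the paper proposes that the MITF KO may still make a little truncated MITF. MITF-less here means only that a line carries the MITF edit. All 7 melanocyte lineage markers (Pmel, Mlana, Tyr, Tyrp1, Dct, Sox10 and Mitf) had a row in the table. A gene is called changed at a Benjamini-Hochberg adjusted p under 0.05 over all 12010 genes in limma, fitted on log2(CPM + 1), and a differentially expressed gene (DEG) where the change was 2-fold or more with an unadjusted p under 0.05. Log2 differences are given ± SE on that scale, where differences of genes with few reads come out too small.

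Against the parental cells, all 8 receptor genes were changed in the MITF/TFEB DKO, where 56.1% of all genes were changed, and 6 of 8 in the TKO, where 56.2% were. The MITF/TFE3 DKO changed 5 (41.9% of all genes) and the MITF KO changed 4 (37.8%). Where MITF was intact the counts were 2 in the TFE3 KO (12.3%), 1 in the TFEB/TFE3 DKO (8.81%) and 0 in the TFEB KO (4.84%). The DEGs among the 8 numbered 5 in the MITF/TFEB DKO (13.7% of all genes), 4 in the TKO (14.7%), 2 in the MITF KO (6.28%) and 1 each in the MITF/TFE3 DKO (5.87%), TFE3 KO (1.71%) and TFEB/TFE3 DKO (0.958%). The TFEB KO had 0 (0.783%) by limma and also 0 by edgeR on recovered whole reads (quasi-likelihood), and 0 receptor genes had an unadjusted p under 0.05 there. The 8 genes did not move as a block: in the MITF/TFEB DKO, Axl, Mertk, Igf1r, Insr and Erbb3 rose while Tyro3, Met and Erbb2 fell, against 28.8% of all genes up and 27.3% down. All comparisons with the parental cells share the same 3 parental libraries.

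**Figure D1:**
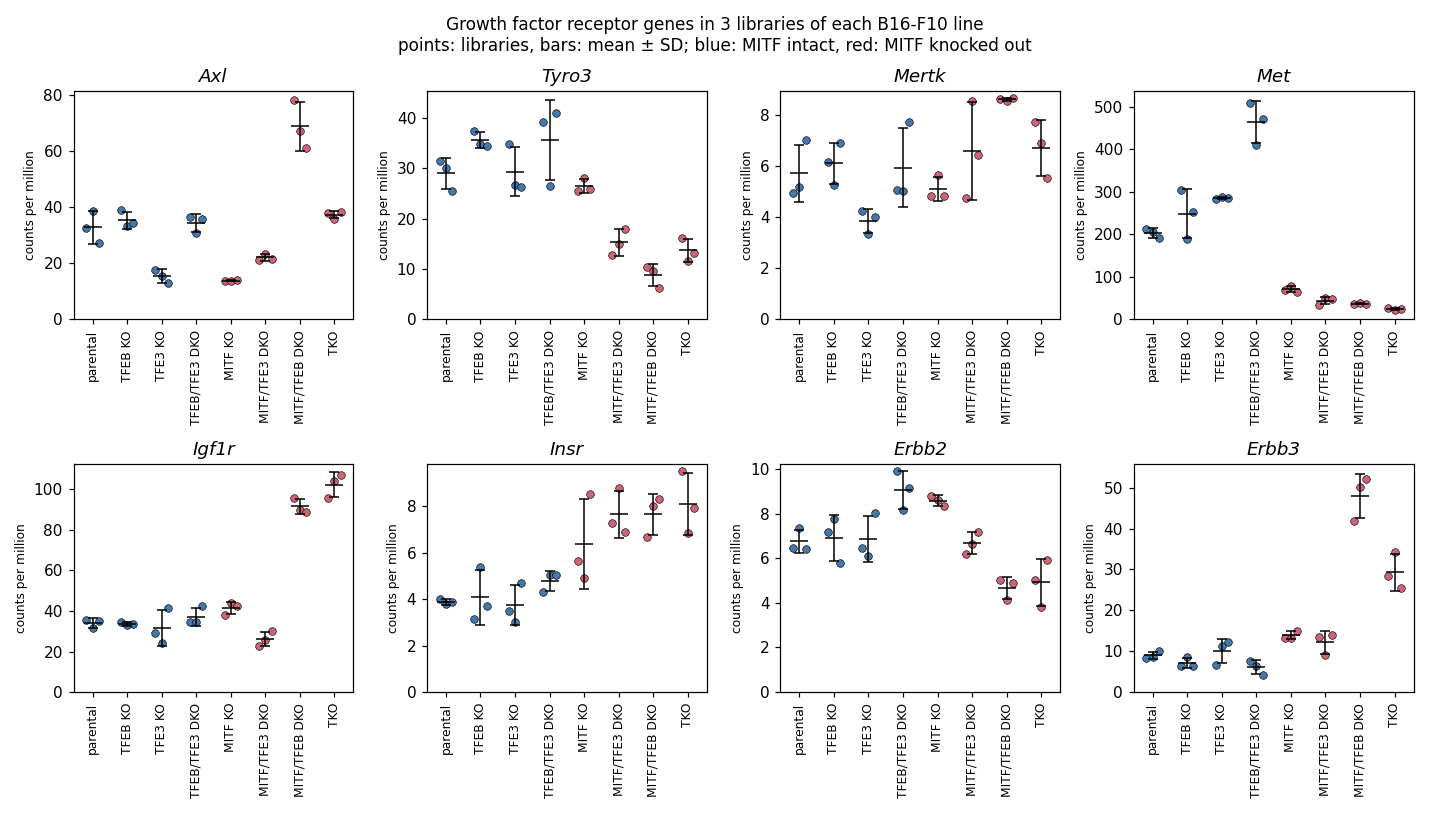
CPM (linear axis) of the 8 receptor genes in each of 24 libraries, with the mean ± SD of the 3 libraries of a line; lines with MITF intact are blue and MITF-less lines red. Axl stood highest in the MITF/TFEB DKO, Met was lower in every MITF-less library than in every other library, and Igf1r and Erbb3 were high in MITF/TFEB DKO and TKO cells.

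**Figure D2:**
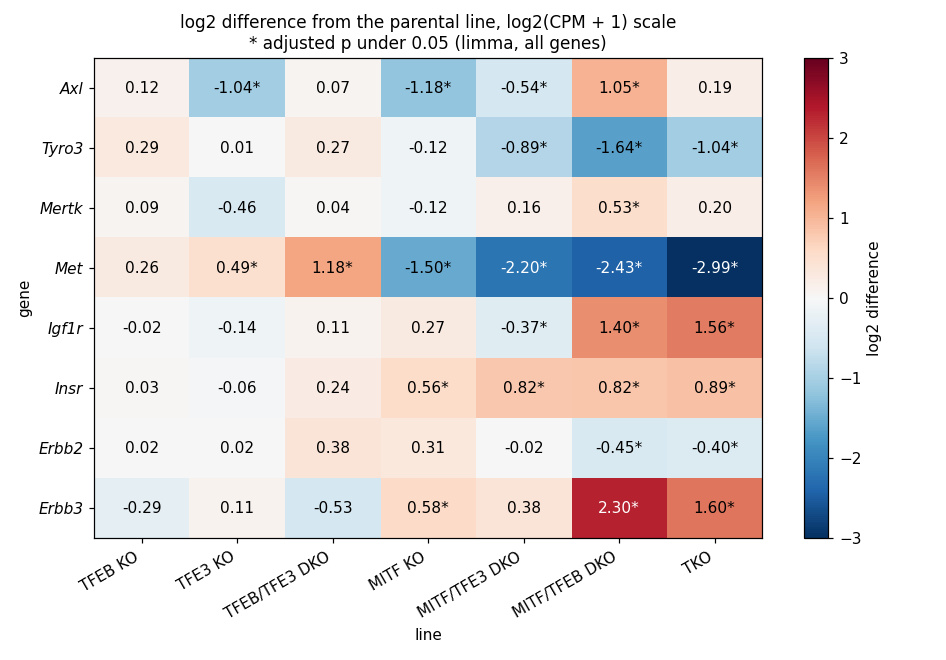
Log2 difference of each KO line (columns) from the parental cells for the 8 receptor genes (rows), with an asterisk at an adjusted p under 0.05. Met ran from 1.18 in the TFEB/TFE3 DKO to -2.99 in the TKO, and Axl was lower in MITF KO and TFE3 KO cells and higher in the MITF/TFEB DKO.

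Axl, the TAM receptor with the highest affinity for GAS6, lies on chromosome 7 (mm39, 25456535 to 25488329, minus strand). It was at 32.5, 38.8 and 27.2 CPM in the parental replicates, at 13.7, 13.7 and 13.9 CPM in MITF KO cells and at 17.8, 15.5 and 12.9 CPM in TFE3 KO cells. Both single KOs lay below every parental library. Axl fell by 1.18 ± 0.12 on the log2 scale in the MITF KO (limma adjusted p = 7.82e-08) and by 1.04 ± 0.12 in the TFE3 KO (limma adjusted p = 3.08e-06). The fold change of the TFE3 KO dropped below 2 without parental replicate 2 (-0.92) or TFE3 KO replicate 3 (-0.93), and those of both KOs with a pseudocount of 5, and all of these kept an adjusted p under 0.05. In the TFEB KO it was at 38.9, 33.2 and 34.3 CPM, within or just above the parental values, with a log2 difference of 0.12 (95% confidence interval -0.14 to 0.38).

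Removing a further factor from those single KOs raised Axl again. The TFEB/TFE3 DKO was at 36.6, 30.7 and 35.7 CPM, which is 1.12 ± 0.12 above the TFE3 KO on the log2 scale (limma adjusted p = 8.97e-07) and 0.07 from the parental cells (95% confidence interval -0.19 to 0.34). The MITF/TFE3 DKO was at 21.2, 23.4 and 21.6 CPM, above every MITF KO and TFE3 KO library and below every parental library. It was 0.64 ± 0.12 above the MITF KO (limma adjusted p = 0.000356) and 0.54 ± 0.12 below the parental cells (limma adjusted p = 0.00135).

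The highest Axl of all lines was in the MITF/TFEB DKO, at 78.2, 67.2 and 61.2 CPM, and no other library passed 38.9 CPM. Its mean of 68.9 ± 8.62 CPM (SD, n = 3) was 4.999 times that of the MITF KO and 2.097 times that of the parental cells. On the log2 scale it was 2.23 ± 0.12 above the MITF KO (limma adjusted p = 5.81e-13) and 1.05 ± 0.12 above the parental cells (limma adjusted p = 1.88e-07). The TKO, which lacks TFE3 as well, was at 38.1, 35.8 and 38.2 CPM, below every MITF/TFEB DKO library. Axl fell by 0.86 ± 0.12 from the MITF/TFEB DKO to the TKO (limma adjusted p = 2.51e-05). The TKO differed from the parental cells by 0.19 ± 0.12, with an adjusted p of 0.189 in limma; without parental replicate 2 the difference was 0.32 and its adjusted p was 0.0442.

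Of 7 neighbouring pairs in the order of Axl, 3 differed. In descending order the lines were the MITF/TFEB DKO, then the TKO, TFEB KO, TFEB/TFE3 DKO and parental cells with no difference between neighbours past the threshold, then the MITF/TFE3 DKO, and last the TFE3 KO and MITF KO, whose difference also missed it (limma adjusted p = 0.374). The loss of TFEB raised Axl in 3 of the 4 backgrounds in which it could be compared, and the exception was the parental background. The loss of TFE3 lowered Axl in parental cells and in MITF/TFEB DKO cells, raised it in the MITF KO, and gave a log2 difference of -0.05 in the TFEB KO (95% confidence interval -0.31 to 0.22). The loss of MITF lowered Axl in the parental cells and raised it in the TFE3 KO (by 0.50) and the TFEB KO (by 0.94), and gave 0.12 in the TFEB/TFE3 DKO (95% confidence interval -0.14 to 0.39).

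Whether the effect of a loss depended on another factor was tested as a difference of differences. The effect of TFEB loss differed between cells without and with MITF for 6 of the 8 receptor genes (35.1% of all genes), and that of TFE3 loss for 4 (20.2%), while TFE3 loss without MITF and TFEB differed from that in the parental cells for 1 (9.43%). The effect of TFEB loss on Axl was 2.12 ± 0.18 higher without MITF than with it (95% confidence interval 1.74 to 2.49, limma adjusted p = 1.62e-09). The effect of TFE3 loss was 1.69 ± 0.18 higher without MITF (95% confidence interval 1.31 to 2.06, limma adjusted p = 1.35e-07). With MITF and TFEB both absent the effect of TFE3 loss differed by 0.19 from that in the parental cells (95% confidence interval -0.19 to 0.56, limma adjusted p = 0.60), so a difference was not shown.

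**Figure D3:**
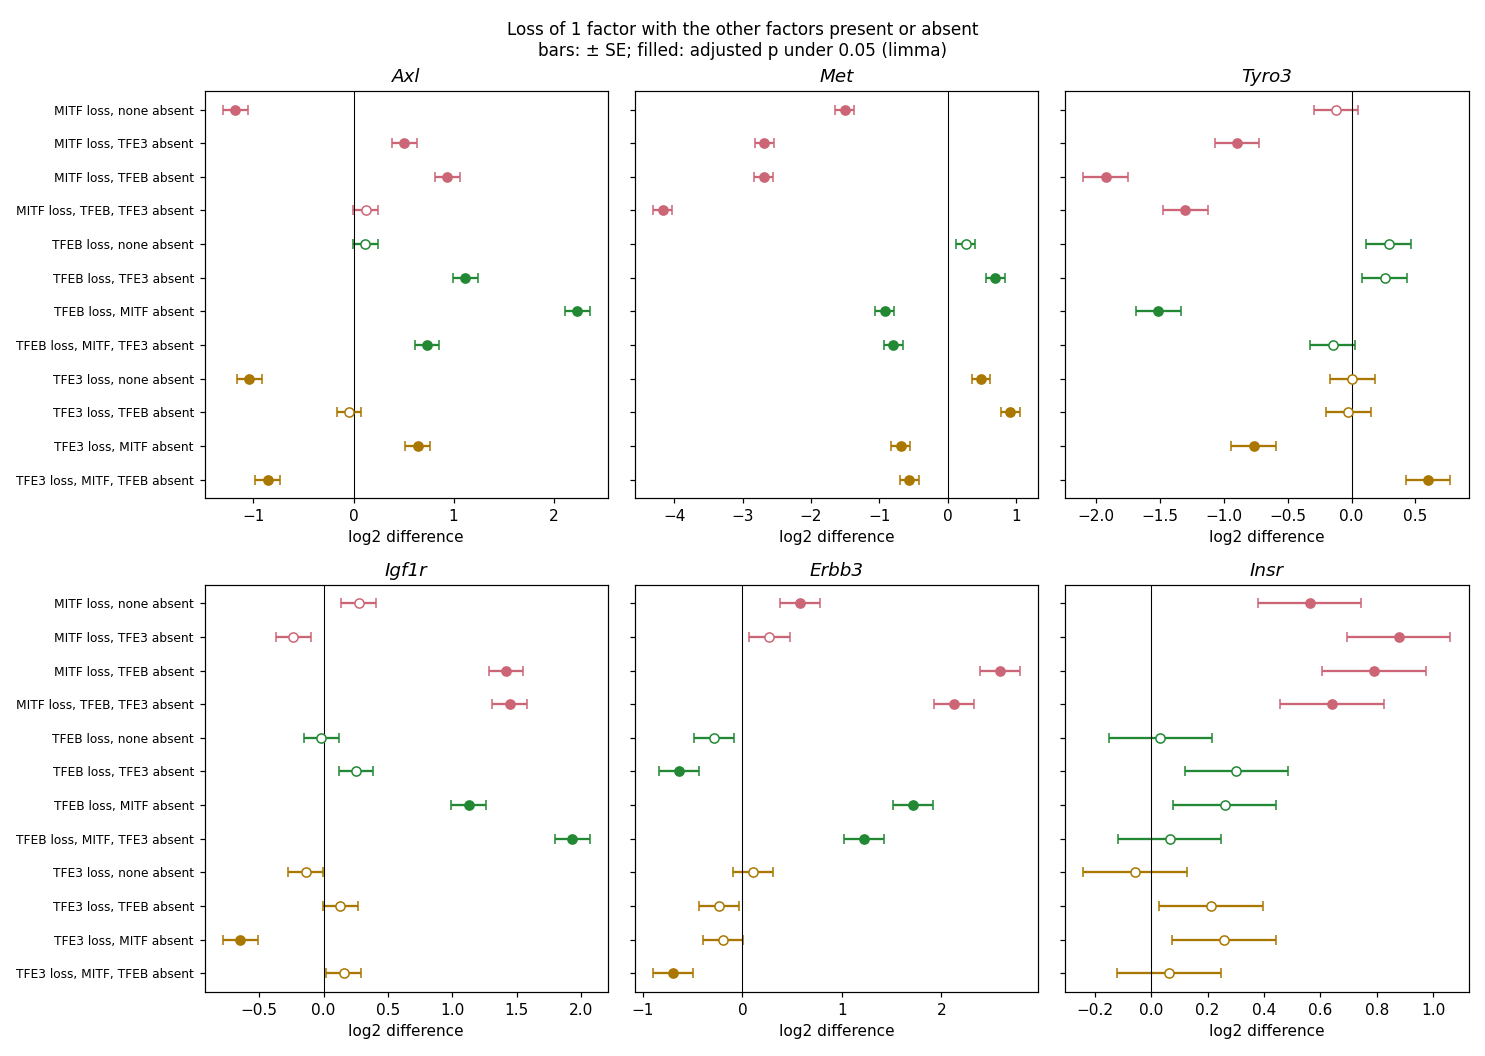
Log2 difference (± SE) made by the loss of MITF (red), TFEB (green) or TFE3 (ochre) in each of 4 backgrounds, for Axl, Met, Tyro3, Igf1r, Erbb3 and Insr, with filled points at an adjusted p under 0.05. For Axl the loss of TFEB gave 2.23 when MITF was absent and 0.12 when all factors were present, while for Met the losses of MITF lay between -4.17 and -1.505.

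Tyro3, the TAM receptor known mainly from the nervous system, was low in the MITF-less double and triple KOs (chromosome 2, 119628214 to 119648738, plus strand). The parental libraries were at 31.4, 30.1 and 25.5 CPM and the MITF KO at 25.6, 27.99 and 25.9 CPM. The MITF/TFE3 DKO was at 12.8, 15.0 and 18.01 CPM, the MITF/TFEB DKO at 10.4, 9.70 and 6.29 CPM and the TKO at 16.2, 11.6 and 13.2 CPM. These 9 libraries lay below all 15 others, of which the lowest was at 25.5 CPM. Tyro3 fell by 0.89 ± 0.17 in the MITF/TFE3 DKO (limma adjusted p = 0.000294), by 1.64 ± 0.17 in the MITF/TFEB DKO (limma adjusted p = 4.14e-08) and by 1.04 ± 0.17 in the TKO (limma adjusted p = 2.54e-05).

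The MITF KO itself differed from the parental cells in Tyro3 by -0.12 (95% confidence interval -0.49 to 0.25), and the 3 KO lines with MITF intact by 0.01 to 0.29, none past the threshold. The loss of TFEB acted on Tyro3 differently without MITF than with it, by -1.80 ± 0.25 (limma adjusted p = 4.63e-06), and the loss of TFE3 by -0.77 ± 0.25 (limma adjusted p = 0.0283). The latter had adjusted p-values of 0.0631 to 0.0836 without parental replicate 3, MITF KO replicate 2, TFE3 KO replicate 1 or MITF/TFE3 DKO replicate 1, with differences of -0.74 to -0.65. The TKO was 0.60 ± 0.17 above the MITF/TFEB DKO (limma adjusted p = 0.0245), which no longer passed without MITF/TFEB DKO replicate 3 (0.40), TKO replicate 1 (0.48) or TKO replicate 3 (0.62), or when only those lines were fitted.

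Mertk, the TAM receptor best known for the uptake of dying cells by phagocytes, was low throughout, from 3.33 to 8.68 CPM or 77 to 220 reads in a library (chromosome 2, 128540729 to 128645080, plus strand). The MITF/TFEB DKO was highest, at 8.63, 8.56 and 8.68 CPM, and the TFE3 KO lowest, at 4.24, 3.33 and 4.01 CPM, with the parental libraries at 4.96, 5.18 and 7.01 CPM. Against the parental cells, Mertk rose by 0.53 ± 0.18 in MITF/TFEB DKO cells (limma adjusted p = 0.0149). That call was lost with quantile normalization (0.40) and without parental replicate 1 (0.45) or 2 (0.48). In the TFE3 KO the difference from the parental cells was -0.46 (95% confidence interval -0.84 to -0.08, limma adjusted p = 0.0993). TFE3 loss acted on Mertk differently without MITF than with it, by 0.74 ± 0.25 (limma adjusted p = 0.0404), a call lost with quantile normalization (0.59), when only the lines compared were fitted, and without parental replicate 3 (0.61), MITF KO replicate 1 or 3 (0.71 each), TFE3 KO replicate 2 (0.66) or 3 (0.77) or MITF/TFE3 DKO replicate 2 (0.56) or 3 (0.74). None of the 7 pairs of neighbouring lines in the order of Mertk passed the threshold. Neighbours in that order have the closest means, so these pairs do not compare lines further apart.

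Met, the receptor for hepatocyte growth factor, had the widest range of the 8 genes, 18.7 times between the highest and lowest line means (chromosome 6, 17463749 to 17573979, plus strand). It was at 212, 206 and 191 CPM in parental libraries, at 283, 287 and 285 CPM in TFE3 KO cells and at 304, 189.5 and 252 CPM in TFEB KO cells. The TFEB/TFE3 DKO was highest, at 509, 411 and 471 CPM. These 4 lines with MITF intact lay between 189.5 and 509 CPM. The 4 MITF-less lines lay between 22.5 and 79.4 CPM, and the 2 sets of 12 libraries did not overlap.

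Among the MITF-less lines, the MITF KO was at 69.4, 79.4 and 64.7 CPM and the MITF/TFE3 DKO at 34.3, 51.3 and 46.9 CPM. The MITF/TFEB DKO was at 36.7, 37.6 and 36.7 CPM and the TKO at 27.2, 22.5 and 24.5 CPM. Every TKO library was thus lower than every library of the other lines. Met fell by 1.505 ± 0.14 in the MITF KO (limma adjusted p = 9.05e-09), by 2.20 ± 0.14 in the MITF/TFE3 DKO (2.53e-11), by 2.43 ± 0.14 in the MITF/TFEB DKO (9.87e-13) and by 2.99 ± 0.14 in the TKO (1.51e-14), in each case by limma against the parental cells. The TKO and the TFEB/TFE3 DKO differ in MITF, and Met was 4.17 ± 0.14 lower on the log2 scale in the TKO, at 0.0534 times the mean CPM (limma adjusted p = 3.25e-17).

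With MITF intact, Met rose by 1.18 ± 0.14 in the TFEB/TFE3 DKO (limma adjusted p = 5.64e-06) and by 0.49 ± 0.14 in the TFE3 KO (limma adjusted p = 0.0232). The smaller rise had adjusted p-values of 0.0526 to 0.0767 without parental replicate 2 or 3 or TFE3 KO replicate 2 or 3, with differences of 0.45 to 0.50. The TFEB KO differed by 0.26 from the parental cells (95% confidence interval -0.03 to 0.56), and its libraries spread over both sides of the parental ones. When TFE3 was lost from the TFEB KO, 1 of the 8 genes was changed (2.18% of all genes), and it was Met, at 0.92 ± 0.14 (limma adjusted p = 0.000703); the call was lost when only those lines were fitted.

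The effects of TFEB and TFE3 loss on Met differed with MITF. The loss of TFEB from the MITF KO lowered Met by 0.92 ± 0.14 (limma adjusted p = 8.64e-06), while its loss from the TFE3 KO raised it by 0.69 ± 0.14 (limma adjusted p = 0.000895). The loss of TFE3 lowered Met in the MITF KO by 0.69 ± 0.14 (limma adjusted p = 0.000519) and in the MITF/TFEB DKO by 0.56 ± 0.14 (limma adjusted p = 0.00738). The effect of TFEB loss was 1.18 ± 0.20 lower without MITF than with it (interaction -1.18, limma adjusted p = 5.16e-05), and that of TFE3 loss also (interaction -1.18, limma adjusted p = 0.000113). Without both MITF and TFEB, TFE3 loss differed from TFE3 loss in the parental cells by -1.05 ± 0.20 (limma adjusted p = 0.000866). In the order of Met, 4 of 7 neighbouring pairs differed; the TFE3 KO, TFEB KO and parental cells did not differ from their neighbours in that run, nor did the MITF/TFE3 DKO from the MITF/TFEB DKO (limma adjusted p = 0.179).

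Of endothelial markers, Pecam1 and Vwf were the 2 of 5 with a row and summed to 10.4 to 10.7 CPM in the parental cells, 30.6 to 38.2 CPM in TFEB/TFE3 DKO cells and at most 2.31 CPM in the MITF-less lines. In the TFE3 KO, where Met was above its parental level, they summed to 2.57 to 4.39 CPM. The defining markers Cdh5, Kdr and Tek had no row in the table. All samples were cultured melanoma lines, and the part of these markers in the Met levels was not tested. In bulk samples, less RNA in every cell and fewer cells that express a gene cannot be told apart. The genes whose pattern over the 8 lines was most like that of Met, among 3017 with a mean of at least 5 CPM and line means spanning at least 1 on the log2 scale, were Gjb2 (Pearson r = 0.992 over 8 line means), L3mbtl2 (r = 0.989) and Nckap5l (r = 0.985). Gjb2, a gap junction subunit, was at 59.8, 56.5 and 72.5 CPM in parental libraries, 106, 129 and 98.4 CPM in TFEB/TFE3 DKO cells and 2.62, 4.42 and 2.41 CPM in TKO cells. The points of each correlation share their libraries and their scaling, and none of these 3 genes lies on the chromosome of Met.

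The 3 genes most like Axl were Bckdha (r = 0.903 over 8 line means), Lins1 (r = 0.898) and Slc25a1 (r = 0.898). Bckdha, a subunit of the enzyme complex that breaks down branched-chain amino acids, lies 98.1 kb from Axl on chromosome 7, with 6 protein-coding genes between. It was at 9.62, 11.1 and 11.96 CPM in parental libraries, 23.1, 21.7 and 16.5 CPM in MITF/TFEB DKO cells and 10.5, 13.1 and 12.7 CPM in TKO cells. Of the 8 other genes with a mean of at least 5 CPM within 500 kb of Axl, 1 rose further than Axl in the MITF/TFEB DKO, namely Cic with a log2 difference of 1.18, and their median was 0.37. In the MITF KO and the TFE3 KO all 8 stood above Axl, with medians of -0.06 and -0.10. In the MITF/TFE3 DKO only 5 of the 8 stood above Axl, and the median was -0.41. Fibroblast markers also stood high in the MITF/TFEB DKO: Col1a1 and Col1a2, the 2 of 5 with a row, summed to 34.4 to 45.3 CPM there and 9.73 to 12.4 CPM in the parental cells. They were also at 32.7 to 41.5 CPM in MITF KO cells, where Axl was lowest, while Dcn, Lum and Pdgfra had no row in the table.

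Igf1r, the receptor for insulin-like growth factors, was high in the lines that lacked both MITF and TFEB (chromosome 7, 67601518 to 67883416, plus strand). It was at 35.7, 31.5 and 35.1 CPM in parental libraries, 95.8, 89.8 and 89.0 CPM in MITF/TFEB DKO cells and 95.6, 104 and 107 CPM in TKO cells. The remaining 18 libraries lay between 23.0 and 43.9 CPM, with no overlap. Igf1r rose by 1.40 ± 0.14 in the MITF/TFEB DKO (limma adjusted p = 8.36e-09) and by 1.56 ± 0.14 in the TKO (limma adjusted p = 1.25e-09), to 2.69 and 3.001 times the parental mean. The difference between these lines was 0.16 (95% confidence interval -0.13 to 0.45).

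Neither the MITF KO, at 38.0, 43.9 and 42.3 CPM, nor the TFEB KO, at 34.5, 32.9 and 33.6 CPM, showed a changed Igf1r in limma (adjusted p = 0.118 and 0.974); the MITF KO passed without TFE3 KO replicate 3 and when only the lines compared were fitted, at the same difference of 0.27. The effect of TFEB loss on Igf1r was 1.14 ± 0.19 higher without MITF than with it (limma adjusted p = 5.95e-05). The MITF/TFE3 DKO was lowest, at 23.0, 25.5 and 30.2 CPM, a fall by 0.37 ± 0.14 from the parental cells (limma adjusted p = 0.0302) that did not pass without parental replicate 1 (-0.34) or 3 (-0.35) or MITF/TFE3 DKO replicate 1 (-0.29) or 2 (-0.36). TFEB loss from that line, which gives the TKO, raised Igf1r by 1.93 ± 0.14 (limma adjusted p = 4.56e-11).

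Insr, the insulin receptor, is the nearest relative of Igf1r and was higher without MITF (chromosome 8, 3172061 to 3329647, minus strand). It was at 4.01, 3.77 and 3.87 CPM in parental libraries, 5.65, 4.90 and 8.55 CPM in MITF KO cells and 7.27, 8.81 and 6.90 CPM in MITF/TFE3 DKO cells. The MITF/TFEB DKO was at 6.67, 8.02 and 8.32 CPM and the TKO at 9.51, 6.85 and 7.91 CPM. The 12 MITF-less libraries lay between 4.90 and 9.51 CPM and the 12 others between 3.03 and 5.39 CPM, so the sets overlapped slightly.

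Insr rose by 0.56 ± 0.18 in the MITF KO (limma adjusted p = 0.0186), 0.82 ± 0.18 in MITF/TFE3 DKO cells (0.00103), 0.82 ± 0.18 in MITF/TFEB DKO cells (0.000573) and 0.89 ± 0.18 in TKO cells (0.00027), by limma against the parental cells. The rise in the MITF KO was lost without MITF KO replicate 3 (0.36) or parental replicate 2 (0.55). MITF loss raised Insr in all 4 backgrounds, though with the same MITF edit each time. The loss of TFEB or TFE3 changed Insr in none of 8 comparisons in the fit of all libraries. Without MITF KO replicate 3, TFEB loss from the MITF KO raised it by 0.46 (limma adjusted p = 0.046). The level of Insr is low, 59 to 261 reads in a library, and its neighbours on the chromosome, all on the same side of it, rose as well. The median log2 difference of 50 neighbouring genes was 0.56 in MITF/TFEB DKO cells and 0.60 in TKO cells, which leaves 0.26 and 0.29 for Insr. In MITF KO and MITF/TFE3 DKO cells that median was 0.19 and 0.30, which leaves 0.38 and 0.52.

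Erbb3, the receptor for neuregulins and a gene of the neural crest and melanocyte lineage, rose most of the 8 genes (chromosome 10, 128403392 to 128425811, minus strand). It was at 8.41, 8.50 and 9.93 CPM in parental libraries, 42.0, 50.1 and 52.0 CPM in MITF/TFEB DKO cells and 28.3, 34.3 and 25.5 CPM in TKO cells. No library of the other lines passed 15.0 CPM. The means were 5.37 and 3.28 times that of the parental cells, with log2 differences of 2.30 ± 0.20 (limma adjusted p = 1.54e-09) and 1.60 ± 0.20 (limma adjusted p = 4.4e-07).

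In the MITF KO Erbb3 was at 13.3, 13.3 and 15.0 CPM, above every parental library, a rise of 0.58 ± 0.20 (limma adjusted p = 0.0261) that missed the threshold without parental replicate 1 (0.54) or 2 (0.55) or MITF KO replicate 3 (0.53). The effect of TFEB loss on Erbb3 was 2.01 ± 0.28 higher without MITF than with it (95% confidence interval 1.40 to 2.61, limma adjusted p = 7.45e-06). With MITF intact but TFE3 absent, TFEB loss lowered Erbb3 by 0.63 ± 0.20 (limma adjusted p = 0.0219), a call lost without TFE3 KO replicate 2 (-0.54) or 3 (-0.49) or TFEB/TFE3 DKO replicate 3 (-0.42), and when only those lines were fitted. The TKO was 0.70 ± 0.20 below the MITF/TFEB DKO (limma adjusted p = 0.0227), with differences of -0.68 to -0.60 and adjusted p-values of 0.0737 to 0.118 without MITF/TFEB DKO replicate 2 or 3 or TKO replicate 1 or 3.

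Erbb2, the ligandless partner of ERBB3, did not follow it (chromosome 11, 98303203 to 98328542, plus strand). It was at 6.47, 7.37 and 6.43 CPM in parental libraries, 5.02, 4.11 and 4.90 CPM in MITF/TFEB DKO cells and 5.03, 3.80 and 5.93 CPM in TKO cells. TFEB loss acted on Erbb2 differently without MITF than with it, by -0.78 ± 0.20 (limma adjusted p = 0.00409). It fell by 0.45 ± 0.14 (limma adjusted p = 0.00991) and by 0.40 ± 0.14 (limma adjusted p = 0.0197) in these lines, and the calls were lost without MITF/TFEB DKO replicate 2 (-0.38) and without parental replicate 2 (-0.35) or TKO replicate 2 (-0.26) respectively. The highest Erbb2 was in the TFEB/TFE3 DKO, at 9.90, 8.17 and 9.15 CPM, a difference of 0.38 from the parental cells that did not pass (limma adjusted p = 0.111). The 3′ end of Erbb2 overlaps Mien1, a gene of the table on the opposite strand, and whether the authors counted by strand is not given in the sources used here, so the values of Erbb2 are uncertain. The 3′ ends of Igf1r and Insr also overlap other annotated genes, but unlike Mien1 these have no row in the table. Whether those overlaps affected the values was not tested.

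Of keratinocyte markers, Krt14 and Cdh1 were the 2 of 5 with a row. They summed to 7.72 to 9.84 CPM in MITF/TFEB DKO cells, 16.4 to 19.7 CPM in TKO cells and at most 2.997 CPM in the other lines. Only Krt14 was raised there, with means of 7.74 and 17.4 CPM against 0 CPM in the parental cells. Cdh1 was not, with means of 1.03 and 0.532 CPM against 1.19 CPM in the parental cells. It was highest in the MITF KO (2.54 CPM). Krt5, Krt1 and Krt10 had no row in the table, nor had any of the 5 macrophage and leukocyte markers. The summed melanocyte lineage markers, of which Dct was the largest, were at 15830 to 19640 CPM in MITF/TFEB DKO cells and the TKO and at 26130 to 40320 CPM in the other lines. Pmel, Mlana, Tyr, Tyrp1, Dct and the edited gene Mitf had lower means in both lines than in the parental cells. Sox10 went the other way, with means of 1053 and 1006 CPM against 731 CPM in the parental cells. The part of all these markers in the receptor levels was not tested.

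Each receptor gene was set beside its nearest genes on the chromosome. For Met in the TKO, none of 81 neighbouring genes fell as far and their median log2 difference was 0.09. For Erbb3 in the MITF/TFEB DKO, none of 61 neighbours rose as far, and their median was 0.47. For Axl, 1 of 100 neighbours fell as far in MITF KO and TFE3 KO cells, and 7 of 100 rose as far in the MITF/TFEB DKO, where the median was 0.23. In the MITF/TFE3 DKO, 24 of 100 fell as far as Axl and the median was -0.31, which leaves -0.23 for Axl. For Igf1r, 7 of 100 rose as far in the MITF/TFEB DKO and 4 of 100 in the TKO. For Erbb2, 31 of 100 neighbours fell as far in the MITF/TFEB DKO and 33 of 100 in the TKO, which leaves -0.30 and -0.19. In the MITF/TFEB DKO, 0 of 100 neighbours fell as far as Tyro3 and 12 of 100 rose as far as Mertk.

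**Figure D4:**
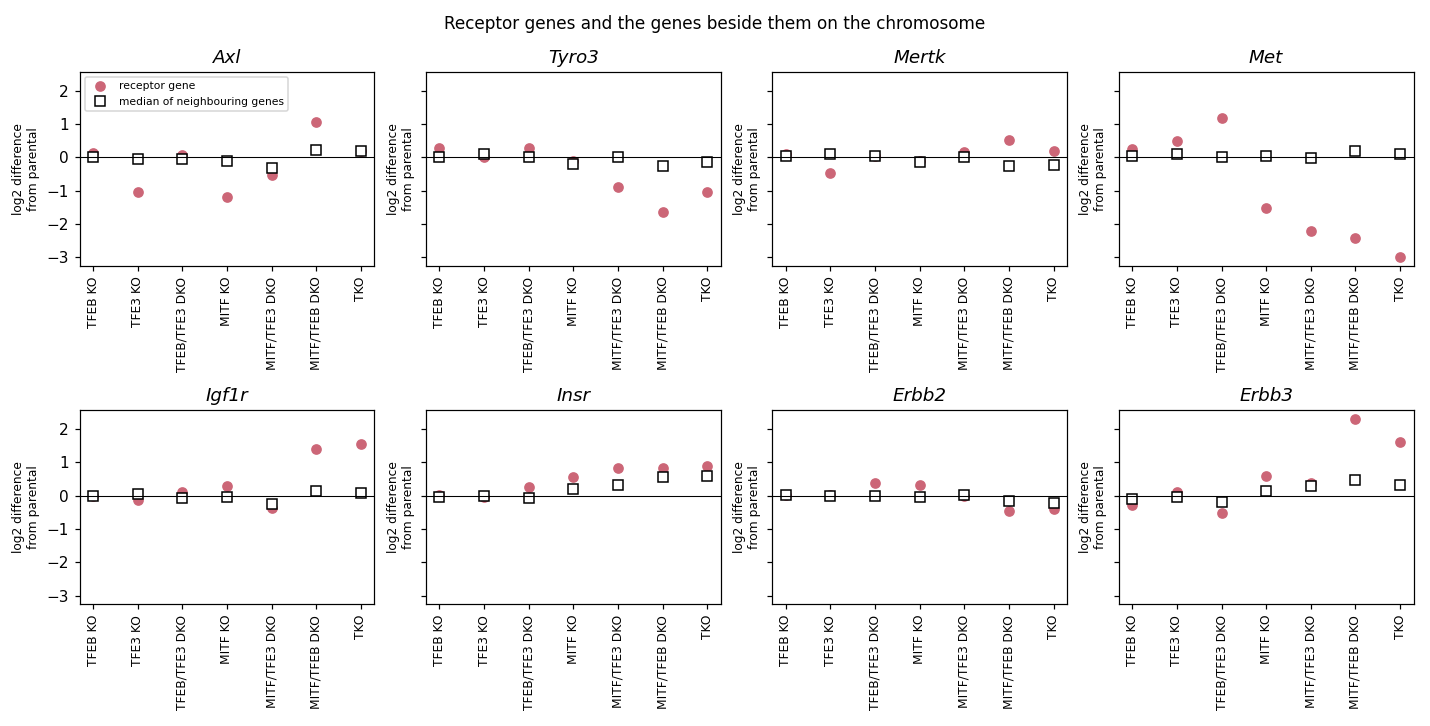
Log2 difference from the parental cells of each receptor gene (filled circles) and the median over its up to 100 nearest genes with a mean of at least 5 CPM (open squares), by KO line. The medians stayed between -0.31 and 0.60, with the highest beside Insr, while Met reached -2.99 and Erbb3 2.30.

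Other genes of receptor signalling were counted in 5 lists, and 109 of 194 listed genes had a row in the table. Of the 18 other receptor tyrosine kinases measured, 10 rose and 7 fell in the MITF/TFEB DKO (94.4% changed, all genes 56.1%) and 10 rose and 5 fell in the TKO (83.3%, all genes 56.2%), against 1 and 1 in the TFEB KO (11.1%, all genes 4.84%). The median log2 difference of these 18 genes was 0.52 in MITF/TFEB DKO cells and 0.62 in TKO cells, and that of all genes 0.01 in each. The largest rise in MITF/TFEB DKO and TKO cells was that of the ephrin receptor gene Ephb2, from 0.475, 1.0004 and 0.899 CPM in parental libraries to 8.70, 7.68 and 7.48 CPM and to 12.5, 13.8 and 13.55 CPM. Ephb4, another ephrin receptor gene, fell in both, from 5.23 CPM on average to 1.82 and 1.61 CPM. Ntrk3, the neurotrophin-3 receptor gene, was at 8.47, 7.35 and 7.85 CPM in MITF KO cells and at most 1.08 CPM in every library of the other lines. Epha3 was highest in the MITF/TFE3 DKO, at 106, 123 and 139 CPM against 35.9, 39.5 and 41.0 CPM in parental libraries.

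Of the 38 ligand genes listed, 6 had a row, and 3 rose and 2 fell in each of MITF/TFEB DKO and TKO cells (all genes, 56.1% and 56.2% changed), too few for a share to be read. Pros1 encodes protein S, a ligand of the TAM receptors, and was at 18.9, 19.4 and 19.5 CPM in parental libraries, 48.0, 49.2 and 51.2 CPM in MITF/TFEB DKO cells and 69.3, 75.7 and 74.8 CPM in TKO cells. It rose by 1.32 ± 0.11 (limma adjusted p = 1.17e-09) and by 1.88 ± 0.11 (limma adjusted p = 2.02e-12). Pros1 was thus highest in the TKO. Tyro3 and Mertk had means of 13.7 and 6.72 CPM in that line, against 29.0 and 5.72 CPM in the parental cells. Lgals3, which encodes galectin-3, a secreted lectin described as a ligand of MERTK, fell from 466, 475 and 462 CPM in parental libraries to 0.0784, 0.252 and 0.239 CPM in MITF/TFEB DKO cells and to 0, 0 and 0.0430 CPM in TKO cells.

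Among 27 binding proteins, co-receptors and proteases, 12 rose and 4 fell in the MITF/TFEB DKO and 13 rose and 4 fell in the TKO. The shares changed, 59.3% and 63%, were near those of all genes (56.1% and 56.2%), and the medians were 0.16 and 0.30. Htra1, a secreted protease, was at 6.43, 6.38 and 6.73 CPM and at 12.02, 11.3 and 10.02 CPM in these lines and at most 0.259 CPM in parental libraries. Igfbp4, which binds insulin-like growth factors, fell from 138, 130.1 and 148 CPM to 34.2, 38.9 and 40.5 CPM and to 53.0, 52.0 and 51.0 CPM. Mfge8, which like protein S bridges dying cells to phagocytes, had a mean of 204 ± 36.1 CPM (SD, n = 3) in the MITF/TFE3 DKO. The parental mean was 673 ± 78.7 CPM (SD, n = 3), and this was the largest fall of this list in that line among DEGs. Mfge8 was low in the other MITF-less lines too, with means of 284 CPM in MITF KO, 276 CPM in MITF/TFEB DKO and 287 CPM in TKO cells.

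Of 30 adaptors and PI3K-AKT effectors, 13 rose and 6 fell in the MITF/TFEB DKO, whereas 7 rose and 12 fell in the MITF/TFE3 DKO. That is 63.3% changed in each, against 56.1% and 41.9% of all genes, with medians of 0.14 and -0.17. Irs1, the adaptor directly downstream of IGF1R and INSR, followed Igf1r: it was at 3.28, 3.27 and 4.45 CPM in parental libraries, 20.3, 23.3 and 25.1 CPM in MITF/TFEB DKO cells and 24.5, 26.4 and 26.7 CPM in TKO cells. Its log2 differences were 2.36 (limma adjusted p = 2.08e-10) and 2.53 (limma adjusted p = 5.09e-11). Irs1 in the other 5 KO lines lay between 2.47 and 6.35 CPM.

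Of 28 inhibitors and ubiquitin ligases of the receptors, 10 rose and 8 fell in the MITF/TFEB DKO and 9 rose and 8 fell in the TKO. The shares changed, 64.3% and 60.7%, were near those of all genes (56.1% and 56.2%), and the medians were 0.08 and 0.18. Inppl1, a phosphatase that acts against PI3K signalling, was at 193, 182 and 171 CPM in parental libraries. It rose to 542, 538 and 518 CPM in TKO cells (log2 difference 1.55, limma adjusted p = 3.1e-13). In MITF/TFEB DKO cells Inppl1 was at 463, 495 and 442 CPM. Trib3, a pseudokinase described as an inhibitor of AKT, rose in the MITF KO (143 CPM on average) and fell in the TFE3 KO (31.2 CPM), the MITF/TFEB DKO (22.6 CPM) and the TKO (12.9 CPM) from 66.1 CPM in the parental cells. Over all 5 lists, 48 genes rose and 27 fell in the MITF/TFEB DKO and 46 rose and 24 fell in the TKO, while 2 rose and 3 fell in the TFEB KO. These were 68.8%, 64.2% and 4.59% of the listed genes measured, beside 56.1%, 56.2% and 4.84% of all genes, and no test compared them.

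**Figure D5:**
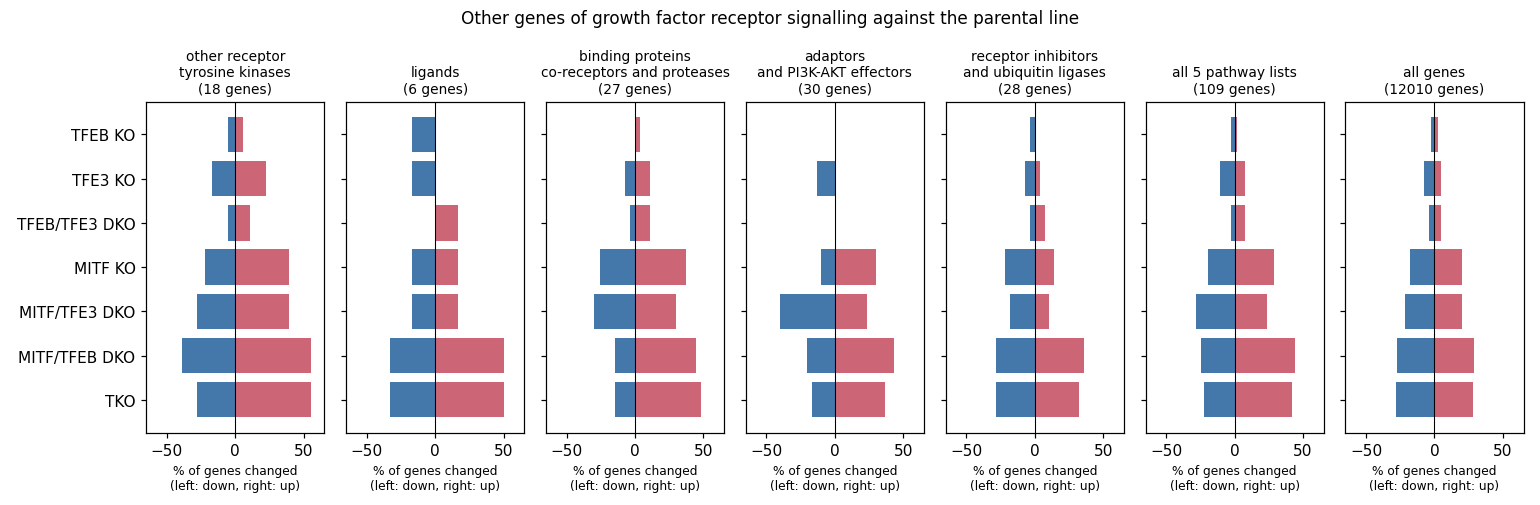
Share of the measured genes of each list that were changed against the parental cells (percent, up to the right and down to the left), by KO line, with all 5 lists together and all 12010 genes at the right. Over all 5 lists together, 68.8% of genes were changed in MITF/TFEB DKO cells and 64.2% in TKO cells, against 56.1% and 56.2% of all genes; among adaptors and effectors the MITF/TFE3 DKO equalled the MITF/TFEB DKO at 63.3%, and among binding proteins the MITF KO equalled the TKO at 63%.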

How the data were processed

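QuantSeq Forward 3′ end libraries of poly(A) RNA were sequenced by the authors on a single flow cell. Per the labels and the submitters' processing notes, reads were trimmed with Trim Galore 0.6.5 and cutadapt 2.10, mapped with STAR 2.7.8a to mm39 and normalised with edgeR (version not given in the sources used here, as are the counting tool, the annotation, strand handling and the filter on genes). The authors deposited a signal that is never negative, namely counts scaled to a common library total (CPM) divided by each library's TMM factor (column totals 933263 to 1081081). CPM with equal totals had been anticipated; the test was kept. Of the values, 99.9% were whole multiples of 1 read (tolerance 0.01; 99.7% in the lowest library), and 18300902 to 26667877 reads per library were recovered. Columns of other samples numbered 0. No replicate pair agreed within sampling noise (lowest chi-square per degree of freedom 4.63).

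All 24 libraries entered 1 limma 3.58.1 fit of line on log2(CPM + 1), with a variance trend and 16 residual degrees of freedom, with no adjustment for other covariates. Intervals use the SE and 16 degrees of freedom. Alternatives were edgeR 4.0.16 on the recovered reads, other pseudocounts (0.25 and 5), a mean CPM of at least 5, median-of-ratios and quantile scaling, no trend, only the lines compared, the replicate number as a block, stricter thresholds, each library left out and values relative to neighbouring genes. On simulated data, limma found 100% of 200 changed genes and 0.0254% of the others among 12010 (edgeR 100% and 0.0931%). The share found of real differences, such as the smaller ones of genes with few reads, was not tested. Positions are from GENCODE on GRCm39 (11659 genes matched). The members and gene lists were chosen with earlier results of these data known. Named genes are the 8 members, the largest rise and fall per list and line among DEGs with an adjusted p under 0.05 as far as needed, 3 genes most like Axl and Met, the knocked-out genes and the markers. Cic was named after its value was seen. Software was R 4.3.3 and Python 3.11.15 with pysam 0.24.0, pandas 2.3.3, matplotlib 3.10.9 and numpy 2.4.6.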

Additional observations from a re-analysis of the deposited data

Results flagged for a closer look

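Of 24 differences of differences (8 genes and 3 pairs of backgrounds), 8 had an adjusted p under 0.05 in limma and a size of at least 1 on the log2 scale. The effect of TFEB loss differed between cells without and with MITF for Axl (2.12), Erbb3 (2.01), Tyro3 (-1.8), Met (-1.18) and Igf1r (1.14). The effect of TFE3 loss differed between cells without and with MITF for Axl (1.69) and Met (-1.18). The effect of TFE3 loss differed between cells lacking both MITF and TFEB and the parental cells for Met (-1.05). The comparisons share libraries, the parental ones among them, so the values for a gene are not independent of each other.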

How the results depend on the processing

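No called value of the 8 genes changed direction under the alternatives run. Of the gene-level values, 5232 were counted as the same, 66 lost a call and 22 gained 1. Values relative to neighbouring genes had no test: 40 of them are among those counted as the same, and 16 moved. Most of the values came from fits without 1 library, which often belonged to a line outside the comparison. At an adjusted p under 0.01 receptor genes changed were 2 for MITF KO (4 at 0.05), 1 for TFE3 KO (2), 2 for TFEB/TFE3 DKO against TFE3 KO (4), 2 for TKO against MITF/TFEB DKO (4) and 2 for TFE3 loss without minus with MITF (4). A pseudocount of 5 gave 1 DEG for MITF KO (2) and 0 for TFE3 KO (1), 2 genes for TFE3 loss without minus with both MITF and TFEB (1), and 8 pathway genes for TFEB KO (5). Fitting only the lines compared gave 5 pathway genes for TFE3 KO (20), 3 for TFEB KO (5) and 6 for TFEB/TFE3 DKO (11), and for TFEB/TFE3 DKO 2 receptor genes against TFE3 KO (4) and 0 against TFEB KO (1). Leaving out 1 library at a time, receptor genes changed ranged from 2 to 5 for MITF KO (2 without parental replicate 2 or MITF KO replicate 3), 1 to 2 for TFE3 KO, 2 to 5 for TFEB/TFE3 DKO against TFE3 KO, 2 to 4 for TKO against MITF/TFEB DKO, 2 to 4 for TFE3 loss without minus with MITF and 1 to 2 without minus with both MITF and TFEB. DEGs ranged from 0 to 1 for TFE3 KO and 1 to 2 for MITF/TFE3 DKO, and pathway genes from 7 to 24 for TFE3 KO (7 without parental replicate 2) and 5 to 17 for TFEB/TFE3 DKO. The cause was not tested. Over all genes, edgeR on recovered reads and limma gave 1277 and 754 DEGs for MITF KO, 551 and 205 for TFE3 KO, 309 and 94 for TFEB KO, 1306 and 705 for MITF/TFE3 DKO and 359 and 115 for TFEB/TFE3 DKO. Insr, Mertk and Erbb2, at 59 to 261 reads in a library, are limited by depth.

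The replicate numbers were shared between lines but did not pair the libraries: the mean correlation of deviations was 0.022 for the same number (-0.66 to 0.77) and -0.013 for other numbers, and 11 of 24 libraries correlated best with their own number. Under the replicate block, 4593 genes changed for MITF KO (4541 without) and 6786 for MITF/TFEB DKO (6742), all 8 receptor genes were still called in the latter, and the block altered 1 gene-level call: Igf1r for TFE3 loss without minus with MITF (-0.51, adjusted p = 0.0403, limma).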
